A study of Arabidopsis thaliana with 6 samples.

Results

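Transcripts of 37 genes for serine proteases of 2 families, the serine carboxypeptidase-like genes (SCPL) and the subtilases (SBT), were measured in rosettes of Arabidopsis thaliana. The genes were chosen by name, with earlier results of these data known. Each was the single gene paired with a probe set, and its symbol began with SCPL or SBT. There were 29 SCPL and 8 SBT genes, with 1 probe set each, among 13513 probe sets paired with 1 gene and 22746 tested in all. The RefSeq gene table holds 57 genes with such a symbol, and the other 20, all SCPL genes, were not analysed here.

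The study compared wild type Col-0 with the pmr5 mutant in the Col-0 background, 3 Affymetrix arrays each, and the labels call the arrays of a genotype biological replicates. All plants were untreated and 3 weeks old and had grown at 22 °C with a 14 h photoperiod. The mutant was isolated for resistance to powdery mildew and its cell walls are known to differ in pectin. The labels do not name the allele or say how many plants went into an array, so that p-values measure the spread between these arrays. In the platform annotation 0 probe sets named PMR5, alone or with other genes, and its transcript was not analysed here.

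Both families cut proteins or transfer groups with an active-site serine. Subtilases are mostly secreted to the cell wall, where members mature peptide hormones and pectin methylesterases. SCPL proteins resemble carboxypeptidases, which remove single amino acids from the end of a protein, and pass through the secretory pathway to the vacuole or the wall. Some SCPL enzymes have become acyltransferases that build sinapate esters and other plant metabolites. Where these proteins lie in the cell was not measured, and "secreted" is background knowledge only.

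The deposited values were log2 signals with a shared lowest value of 2.19, held by 25.0% to 26.3% of the probe sets on each array. A gene there had no measured level, and just above it a difference can be cut short. The median log2 signal of the arrays lay between 4.68 and 4.78. On the first principal component of the probe sets above the lowest value (37.7% of the variance) Col-0 replicate 1 stood apart, with a score of 50.7 against -31.2 to 14.4 on the other arrays. The second component (32.3%) set pmr5 replicate 2 (36.9) and Col-0 replicate 3 (30.7) apart from the rest (-29.1 to -4.84). The spiked poly-A controls averaged 6.53 to 6.74 in Col-0 and 5.98 to 6.497 in pmr5, with no overlap. As a check of the tissue, the rubisco activase gene RCA read 15.20 to 15.24 on every array, and the root hair gene EXPA7 held 2.19 on all 6. The other measured root marker, PYK10, was above the lowest value on every array, at 3.28 to 5.86. Markers of flowers, seeds, vascular cells and senescing leaves were not analysed here.

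The 37 genes fell into a group with a clear signal and a group at or near the lowest value, with no gene between them. A clear signal was found for 17 genes, 13 SCPL and 4 SBT, whose means over the 6 arrays ran from 4.42 to 9.15. The other 20 genes had means of 2.71 or less, and no array read above 3.02 for any of them. Signals of different probe sets depend on their probes, so the genes are not ranked by level here. Counted strictly, 21 genes were above the lowest value on every array, 8 were at it on every array and 8 were at it on some, that is 56.8% above and 21.6% at it throughout. Among all probe sets with 1 gene these shares were 66.2% and 19.6%.

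**Figure D1:**
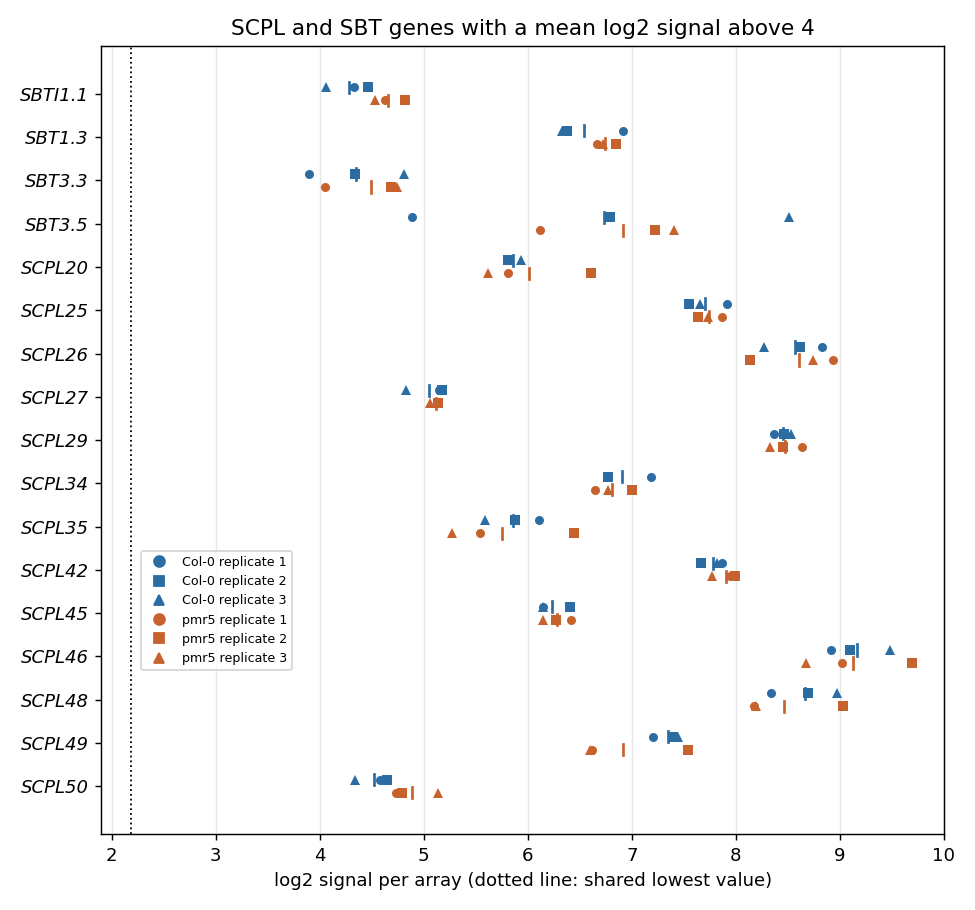
Log2 signal of the 17 genes with a mean above 4, with 1 point per array. Col-0 is blue and pmr5 orange, the marker shape gives the replicate, the short bar is the mean of the 3 arrays, and the dotted line is the shared lowest value of 2.19. The genotypes are separate for SBTI1.1 and SCPL50, and SBT3.5 spreads over 3.62 log2 units. Signals of different genes are not comparable along the axis.

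Among the subtilases with a clear signal, SBTI1.1 encodes a protease, also called SBT1.1, that is known to cut a precursor of the growth peptide phytosulfokine. Its log2 signal was 4.33, 4.46 and 4.06 on the Col-0 arrays and 4.63, 4.82 and 4.53 on the pmr5 arrays. Every pmr5 array was above every Col-0 array. The means were 4.28 ± 0.20 and 4.66 ± 0.15 (SD, n = 3), and the difference of 0.38 (SE 0.14), or 1.297-fold, had an unadjusted p of 0.0488 and an adjusted p of 1 in limma. With the arrays centred on their medians, the genotypes overlapped for this gene, and with array weights the difference was 0.22.

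SBT1.3, a subtilase gene for which no role is given here, read 6.91, 6.38 and 6.33 in Col-0 and 6.66, 6.84 and 6.72 in pmr5. The 3 pmr5 arrays lay between Col-0 replicate 1, the highest, and the other Col-0 arrays. The difference was 0.20 (SE 0.18), which did not pass the test, and it was 0.39 when Col-0 replicate 1 was left out, 0.12 when Col-0 replicate 2 was and 0.095 when Col-0 replicate 3 was.

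SBT3.5 is known to process the pectin methylesterase PME17, an enzyme that removes methyl groups from wall pectin. The gene had the widest spread over arrays of all 37, with 4.89, 6.79 and 8.51 in Col-0 and 6.12, 7.22 and 7.40 in pmr5. The lowest and the highest reading both came from Col-0, and all pmr5 arrays lay between them. Its SD was 1.81 in Col-0 and 0.70 in pmr5 (n = 3 each). Pooled over the 2 genotypes it was 1.37, and only 0.772% of the 16186 probe sets that exceeded 2.19 on all arrays had a larger pooled SD. The difference between the genotypes was 0.18 with a 95% confidence interval from -2.67 to 3.04 (limma), so that a large change in either direction would not have been seen. It was -0.74 without Col-0 replicate 1 and 1.07 without Col-0 replicate 3.

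SBT3.3, a close neighbour of SBT3.5 on chromosome 1 with 1 protein-coding gene between them, encodes a protease known to prime immune responses when overproduced. It read 3.89, 4.34 and 4.81 in Col-0 and 4.05, 4.68 and 4.74 in pmr5. From low to high the 6 arrays stood in the same order for SBT3.3 and SBT3.5, starting with Col-0 replicate 1 and pmr5 replicate 1 and ending with Col-0 replicate 3. Whether probes of one gene also bind transcripts of the other was not tested. The difference was 0.14 (SE 0.33), with an adjusted p of 1 in limma, and -0.09 without Col-0 replicate 1. The 4 SBT genes with a clear signal had differences of 0.14 to 0.38, and none passed the test. Of 5 measured subtilases with other names, described further on, 4 had a lower mean in pmr5.

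The SCPL genes with a clear signal were SCPL20, SCPL25, SCPL26, SCPL27, SCPL29, SCPL34, SCPL35, SCPL42, SCPL45, SCPL46, SCPL48, SCPL49 and SCPL50. Their spread over the 6 arrays ran from 0.27 log2 units in SCPL45 to 1.17 in SCPL35. Only the genotypes of SCPL50 were separate. It read 4.58, 4.65 and 4.34 in Col-0 and 4.73, 4.79 and 5.14 in pmr5, with every pmr5 array above every Col-0 array. The means were 4.52 ± 0.16 and 4.89 ± 0.22 (SD, n = 3). The difference was 0.36 (SE 0.15), or 1.29-fold, with an unadjusted p of 0.0658 and an adjusted p of 1 in limma. Without pmr5 replicate 3 it was 0.24.

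SCPL49 is listed by RefSeq under the name carboxypeptidase Y, after the vacuolar enzyme of yeast. Its signal was 7.21, 7.39 and 7.45 in Col-0 and 6.62, 7.54 and 6.60 in pmr5. Replicate 2 of pmr5 was the highest of all 6 arrays, and the other pmr5 arrays were the lowest. The difference of -0.43 (SE 0.30) was the largest in size among the SCPL genes and did not pass the test. Without pmr5 replicate 2 it was -0.74, without pmr5 replicate 1 it was -0.28 and without pmr5 replicate 3 it was -0.27, and over the alternative settings the smallest adjusted p of this gene was 0.324.

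SCPL48 and SCPL46 followed a similar order of arrays. SCPL48 read 8.34, 8.69 and 8.97 in Col-0 and 8.18, 9.02 and 8.19 in pmr5. SCPL46 read 8.92, 9.10 and 9.48 in Col-0 and 9.02, 9.69 and 8.67 in pmr5. In both, as in SCPL49, pmr5 replicate 2 was the highest array and Col-0 replicate 3 the next. The differences between the genotypes were -0.20 (SE 0.32) for SCPL48 and -0.03 (SE 0.33) for SCPL46, each with an adjusted p of 1 in limma. That of SCPL48 was -0.48 when pmr5 replicate 2 was left out and -0.052 when Col-0 replicate 3 was. SCPL26 showed the reverse order at its low end. It read 8.82, 8.61 and 8.27 in Col-0 and 8.94, 8.13 and 8.74 in pmr5, so that pmr5 replicate 2 and Col-0 replicate 3 were its lowest arrays. These are the arrays set apart by the second principal component of the probe sets above the lowest value, and the part of that component in the values was not tested.

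SCPL20 and SCPL35 were also highest in pmr5 replicate 2. SCPL20 read 5.82, 5.81 and 5.94 in Col-0 and 5.81, 6.60 and 5.61 in pmr5, a difference of 0.15 (SE 0.29), which was -0.14 without that array. SCPL35 read 6.11, 5.87 and 5.59 in Col-0 and 5.54, 6.45 and 5.27 in pmr5, a difference of -0.11 (SE 0.37), which was -0.45 without it. Over the 21 genes that exceeded 2.19 on all arrays, pmr5 replicate 2 held the highest reading for 7, or 33.3%. These were SCPL20, SCPL35, SCPL42, SCPL46, SCPL48, SCPL49 and SBTI1.1. Among all probe sets that exceeded 2.19 on all arrays, this array held the highest reading for 19.3%.

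**Figure D2:**
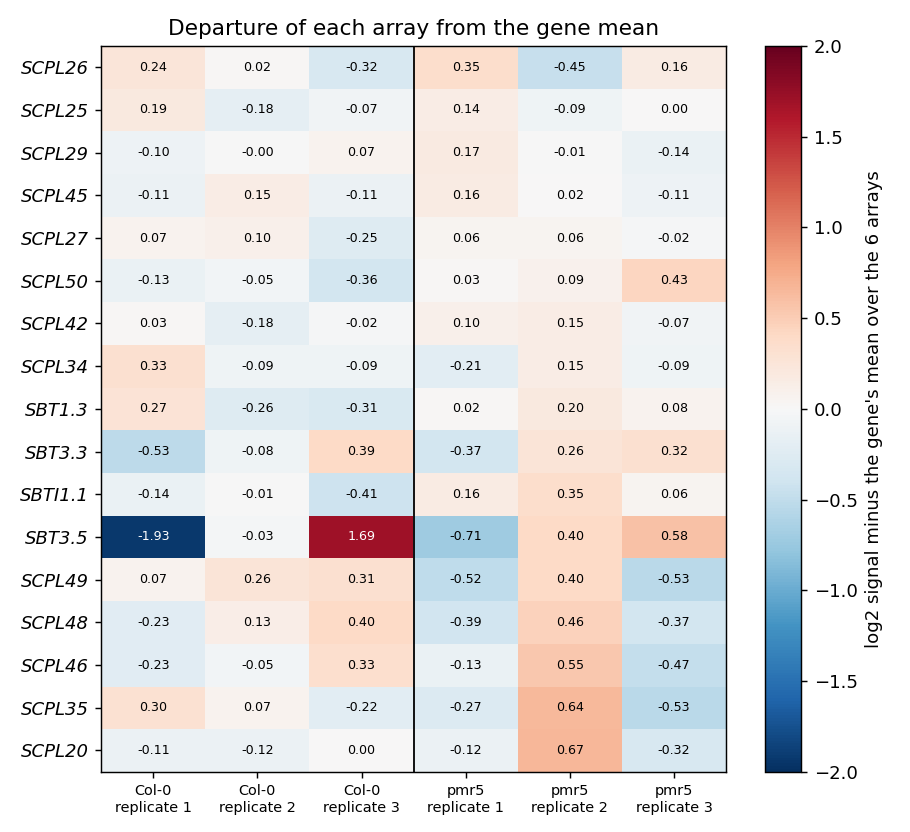
Departure of each array from the gene's own mean over the 6 arrays, in log2 units, for the 17 genes with a mean above 4. Rows are sorted by the value of pmr5 replicate 2. SBT3.5 runs from 4.89 in Col-0 replicate 1 to 8.51 in Col-0 replicate 3 (log2 signal). SCPL46, SCPL48, SCPL49, SCPL20, SCPL35, SCPL42 and SBTI1.1 are highest in pmr5 replicate 2.

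The remaining SCPL genes varied little. SCPL29 read 8.36, 8.46 and 8.53 in Col-0 and 8.64, 8.45 and 8.33 in pmr5, a difference of 0.02 with a 95% confidence interval from -0.24 to 0.28 (limma). SCPL42 read 7.87, 7.66 and 7.82 in Col-0 and 7.94, 7.99 and 7.77 in pmr5, a difference of 0.12 with an interval from -0.12 to 0.35. The genotypes overlapped in both. SCPL25 lay between 7.55 and 7.92, with an interval of its difference from -0.29 to 0.36. SCPL45 lay between 6.14 and 6.42, with an interval from -0.25 to 0.35, and SCPL27 between 4.83 and 5.18, with an interval from -0.23 to 0.35. In each of these 5 genes the interval excluded a 2-fold change in either direction. SCPL34 read 7.18, 6.77 and 6.77 in Col-0 and 6.64, 7.004 and 6.77 in pmr5, and its difference of -0.10 (SE 0.17) was 0.04 without Col-0 replicate 1.

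Of the 20 genes at or near the lowest value, 8 held exactly that value on all 6 arrays. They were SCPL18, SCPL21, SCPL22, SCPL30, SCPL40, SCPL43, SBT4.12 and SBT5.4. SBT4.12 and SBT4.13 are known, with SBT5.2, for maturing the abscission peptide IDA. SBT4.13 was above the lowest value by less than 0.001 on 1 array. For SCPL23, SCPL28, SCPL31, SCPL38, SCPL41 and SCPL44, 1 to 3 arrays were above the lowest value, and none read above 2.52. SCPL16, SCPL32, SCPL33 and SCPL47 were above it on every array, yet no array exceeded 2.73. SCPL47 held 1 value, 2.59, on the 3 pmr5 arrays and on Col-0 replicate 3, and read 2.73 and 2.66 on the other Col-0 arrays. Its difference was -0.07 (SE 0.04), with an adjusted p of 1 in limma.

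SBT3.12 was the one gene of this group whose readings moved by over 0.5 log2 units. It read 2.19, the lowest value, on Col-0 replicate 1, then 2.95 and 2.20 on the other Col-0 arrays, and 3.02, 2.98 and 2.95 on the pmr5 arrays. All pmr5 arrays and Col-0 replicate 2 were close together, and the other Col-0 arrays were at or next to the lowest value. The difference was 0.54 (SE 0.24), with an unadjusted p in limma of 0.0844. With Col-0 replicate 2 left out it was 0.79, and its adjusted p of 0.127 (limma) was the lowest over its alternatives, which reached 1. No role is given here for SBT3.12.

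**Figure D3:**
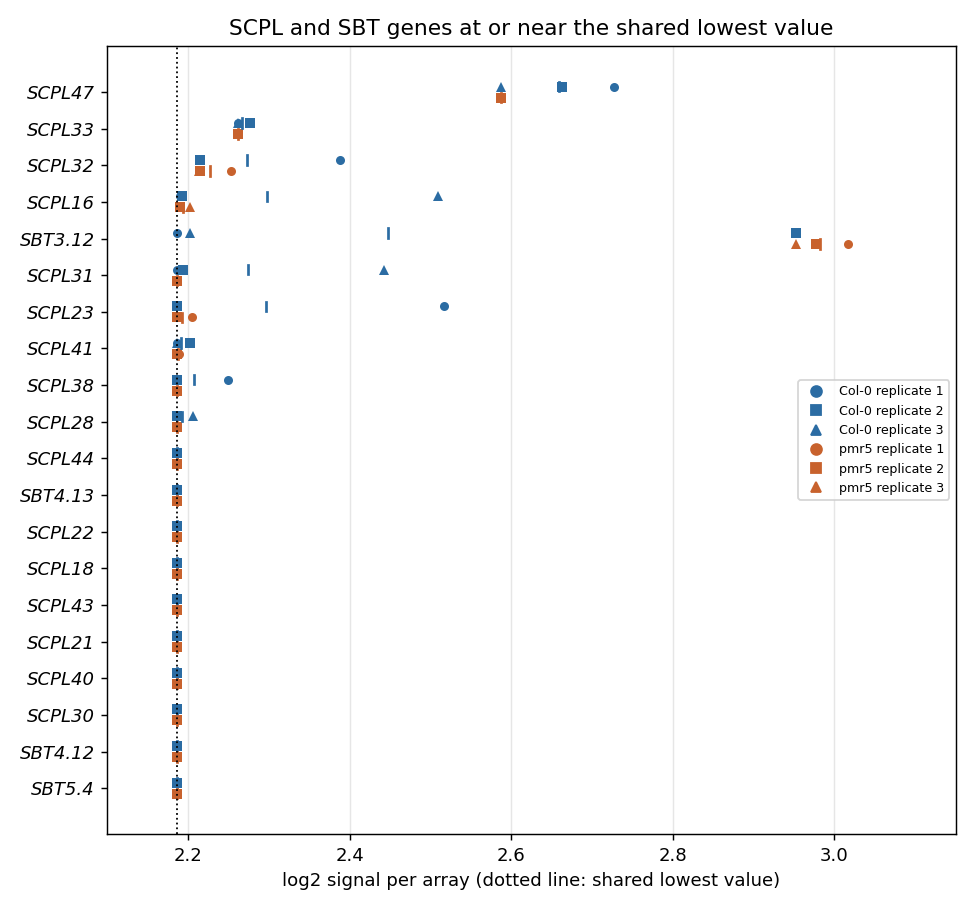
Log2 signal of the 20 genes at or near the shared lowest value of 2.19 (dotted line), with 1 point per array and short bars for the mean of the 3 arrays of a genotype. Points of equal value hide each other. Only SBT3.12 has arrays close to 3, which are the 3 pmr5 arrays and Col-0 replicate 2.

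By the order of protein-coding genes in RefSeq, 5 pairs of the 37 genes had at most 5 genes between them, and in 2 of these pairs only 1 gene gave a clear signal. SCPL28 and SCPL26 are next to each other on chromosome 2, and SCPL28 had a mean of 2.19 where SCPL26 had 8.59. SCPL41, at 2.19, and SCPL42, at 7.84, lie on chromosome 5 with 2 genes between them. In the other pairs both genes stood on the same side, with SCPL22 and SCPL23, and SBT4.12 and SBT4.13, at or near the lowest value, and SBT3.5 and SBT3.3 with a clear signal. By chromosome, 6 of 9 genes on chromosome 1, 2 of 7 on chromosome 2, 6 of 8 on chromosome 3, 2 of 4 on chromosome 4 and 5 of 9 on chromosome 5 were above the lowest value on every array. A probe set shared by SCPL36 and SCPL37 held 2.19 on all 6 arrays and was left out because it names several genes.

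Setting pmr5 beside Col-0 addressed whether transcripts change in the mutant when no pathogen is applied. Of the 37 genes, 0 passed an adjusted p under 0.05 in limma, against 0% of all 22746 probe sets, and the smallest adjusted p was 1. At an unadjusted p under 0.05 there was 1 gene, SBTI1.1, against 2.6% of all probe sets. Of the 21 genes above the lowest value on every array, 12 had a higher and 9 a lower mean in pmr5, and the share of higher means was 57.1% against 49.2% of all such probe sets. The genotypes were separate in 2 of the 21, or 9.52%, against 6.44% of all such probe sets. Of these, 2 were higher in pmr5 (3.35% of all such probe sets) and 0 lower (3.09%). None of the 21 differed 2-fold, as 1.27% of all such probe sets did. Shares this close to those of all probe sets are not a result about these genes.

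The median difference of the 21 genes was 0.03 log2 units, against 0.00 over all such probe sets, and their median size was 0.10 against 0.12. The median difference was -0.01 for the SCPL genes, which is the value of SCPL33, a gene near the lowest value. These SCPL genes also include SCPL16, SCPL32 and SCPL47, likewise near it. For the SBT genes the median difference was 0.19, over 4 genes. Differences ran from -0.43 in SCPL49 to 0.38 in SBTI1.1. For 12 of the 17 genes with a clear signal the 95% confidence interval lay within 1 log2 unit on both sides. It reached past that size in SBT3.3, SBT3.5, SCPL35, SCPL48 and SCPL49, so that a 2-fold difference in these was not excluded by the measurement. In bulk rosettes, fewer cells of a type and less RNA per cell cannot be told apart.

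**Figure D4:**
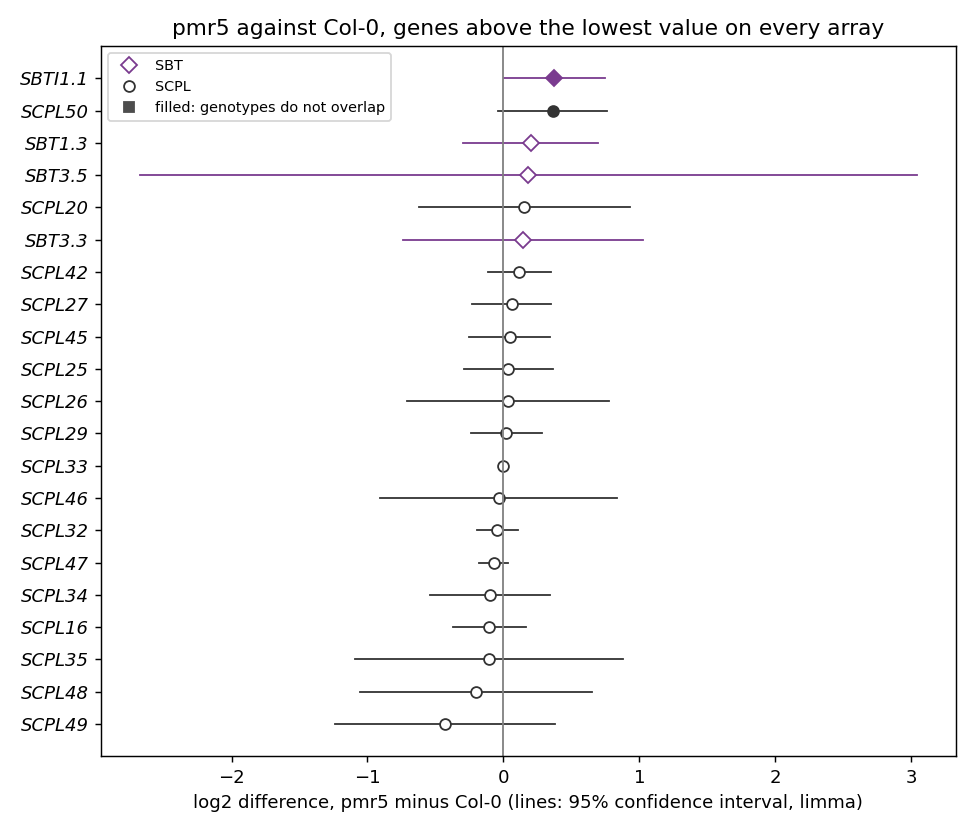
Log2 difference, pmr5 minus Col-0, of the 21 genes above the lowest value on every array, with 95% confidence intervals from limma. Diamonds are SBT and circles SCPL genes, and filled symbols mark the 2 genes whose genotypes do not overlap, SBTI1.1 at 0.38 and SCPL50 at 0.36. The interval of SBT3.5 runs from -2.67 to 3.04.

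Guard cell markers were set beside SBTI1.1 and SCPL50. Of 6 markers 4 were measured, and in pmr5 AT1G22690 was higher by 0.58 (SE 0.11) and FMA by 0.16 (SE 0.06). The genotypes were separate for both. In limma the unadjusted p was 0.0049 for AT1G22690 and 0.063 for FMA, and the adjusted p was 1. Of all probe sets exceeding 2.19 throughout, 3.35% were likewise separate and higher in pmr5. The 4 markers are too few to be compared with that share. The stomatal lineage genes SPCH and MUTE were at or near the lowest value, at 2.34 or less on every array. The summed linear signal of the 4 ran from 1093 to 1376 in Col-0 and from 1680 to 1905 in pmr5. Nearly all of this sum came from AT1G22690, with a log2 signal of 10.02 to 10.85 where FMA had 5.41 to 5.74. The sum is thus not a measure over 4 markers. The part of these cells, and of the poly-A controls, in the values of SBTI1.1 and SCPL50 was not tested. The trichome gene TRY, at 8.81 in pmr5 replicate 2, was highest on the same array as SCPL46, SCPL48 and SCPL49, and its part was not tested.

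Relatives of the subtilases that carry other names were set beside the 37 genes, and 5 of 13 listed were measured. ARA12, also called SBT1.7 and known for the release of seed mucilage, read 10.38, 10.43 and 10.56 in Col-0 and 10.19, 10.73 and 10.20 in pmr5. S1P, or SBT6.1, the site-1 protease of the secretory pathway, differed by -0.10 (SE 0.12). ATSBT5.2, known for cutting the stomatal peptide EPF2, read 5.58, 6.12 and 6.13 in Col-0 and 5.86, 5.62 and 5.92 in pmr5, a difference of -0.14 (SE 0.20). TPP2, for tripeptidyl peptidase II of the cytosol, differed by -0.09 (SE 0.14) and AT3G14067, the senescence-associated protease SASP, by 0.04 (SE 0.22). All 5 exceeded 2.19 on all arrays, 0 passed the test in either direction, and the genotypes overlapped in each.

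Substrates and partners gave few values. Of 26 listed precursors, receptors and inhibitors of subtilases 4 were measured. In either direction 0 of them passed the test, which 0 of all 22746 probe sets passed. BZIP28 and BZIP17, for stress transcription factors that S1P releases from membranes, differed by 0.05 (SE 0.11) and -0.05 (SE 0.26). FER, for the receptor kinase of RALF peptides, differed by -0.17 (SE 0.20), and AT1G71950, for the subtilase inhibitor SPI-1, by -0.02 (SE 0.16). Of 14 listed genes of sinapate ester synthesis, the pathway that ends in SCPL acyltransferases, 3 were measured, and 0 passed the test in either direction. HCT differed by 0.11 (SE 0.21) and ALDH2C4, or REF1, by 0.01 (SE 0.21). UGT84A1, for a glucosyltransferase of hydroxycinnamates, held 2.94 on all Col-0 arrays and on pmr5 replicate 1, and read 4.49 and 2.68 on the other pmr5 arrays. The 95% confidence interval of its difference ran from -1.01 to 1.88 (limma), so that a 2-fold difference was not excluded.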

How the data were processed

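Transcript levels were measured on 6 one-colour Affymetrix arrays, 3 of Col-0 and 3 of pmr5. The deposited values are log2 signals per probe set, made by the authors with RMA. The submitters' processing notes name affy and RMA without versions. How the shared lowest value was set is not stated there. The table held 22810 probe sets, and 64 Affymetrix controls were left out. Values within 1e-06 of the minimum counted as the lowest value, and values within 1e-06 of each other as equal. Gene names came from the platform annotation, and all 37 genes matched RefSeq (TAIR10.1), which was used for names and gene order only. The files name no genome build, so no coordinates are given.

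The values were fitted as deposited with limma 3.58.1 in R 4.3.3, as pmr5 minus Col-0, with lmFit and eBayes over all 22746 probe sets, 2-sided, with Benjamini-Hochberg adjustment and a threshold of 0.05. Standard errors and intervals are limma's moderated ones. Tables and plots used Python 3.11.15. The fit was tested on simulated data with 200 changed probe sets in each of 10 draws. The alternatives were the replicate number as a block, each array left out, filters on dim probe sets and on the lowest value, quantile normalization, median centring, a trended robust prior, array weights, all probe sets of a gene, cross-hybridizing probe sets left out, and other thresholds. The genes and lists were chosen with earlier results of these data known. All 37 genes are accounted for, and those named in full are the genes past the test or with separate genotypes, up to 12 others above the lowest value with the smallest p, and those with a known role. SCPL25, SCPL26, SCPL29, SCPL35, SCPL45, SCPL46 and SBT3.12 fell outside this rule and were described after their values were seen. The number of arrays limits the precision.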

Additional observations from a re-analysis of the deposited data

How the results depend on the processing

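The count of 0 genes past the test stayed 0 in 16 of 17 alternative settings, and was 1 (SBTI1.1) at an unadjusted p under 0.05 in limma. Of the 17, taking all probe sets of a gene and leaving out cross-hybridizing ones could change no result. The 37 genes had 1 probe set each, and 0 of these were marked as cross-hybridizing. The 2 genes with separate genotypes and a higher level in pmr5 were 0 among probe sets above the median mean, where SBTI1.1 and SCPL50 were filtered out, and 1 (SCPL50) with arrays centred on their medians. With 1 array left out this count ran from 2 to 3. The count of separate genes with a lower level, 0, became 1 (SCPL16) with arrays centred, and ran from 0 to 3 with 1 array left out. As deposited, SCPL16 held 2.19 alike on Col-0 replicate 1 and pmr5 replicates 1 and 2, near the lowest value. Centring moved these equal readings apart, so that its separation is not a lower measured level. The count of lower genes was 3 (SCPL35, SCPL48 and SCPL49) without pmr5 replicate 2 and 2 (SCPL27 and SCPL47) without Col-0 replicate 3. Fewer arrays separate more easily, and no share over all probe sets was computed for these settings. The counts are therefore not a result about the named genes. The median difference of 0.03 lay between -0.0053 and 0.044 in all its settings. The labels do not say whether same-numbered arrays belong together. Same-numbered arrays correlated at 0.12, -0.28 and 0.19 in their deviations from the genotype means. Only the arrays numbered 3 were each other's best match. With the replicate block 0 genes passed, while over all probe sets the count at an unadjusted p under 0.05 in limma went from 591 to 750. The median of 0.03 could not change with this block, since both genotypes have the same replicate numbers. Of 22 genes with a recomputed difference, 8 kept their sign in every setting, 13 turned it without 1 array and 7 in another setting. With arrays centred, SCPL26 was at -0.0049, SCPL29 at -0.019 and SCPL25 at -0.0025. Centring lowered the difference of every probe set by the same amount. The median over all probe sets above 2.19 on all arrays was then -0.040. The cause of the other turns was not tested. With array weights, SCPL29 was at -0.011, SCPL45 at -0.068, SCPL20 at -0.063 and SCPL27 at -0.016, and with quantile normalization SCPL33 was at 0.0014. With 1 array left out the differences ran from -0.74 to 1.07 in SBT3.5, -0.086 to 0.37 in SBT3.3, -0.32 to 0.19 in SCPL46, -0.13 to 0.27 in SCPL26, -0.061 to 0.094 in SCPL29, -0.041 to 0.14 in SCPL25, -0.20 to 0.037 in SCPL34, -0.023 to 0.13 in SCPL45, -0.14 to 0.35 in SCPL20, -0.45 to 0.13 in SCPL35, -0.051 to 0.12 in SCPL27, -0.074 to 0.013 in SCPL32 and -0.16 to 0.0026 in SCPL16. For the 8 genes that kept their sign they ran from 0.26 to 0.46 in SBTI1.1, 0.24 to 0.44 in SCPL50, 0.095 to 0.39 in SBT1.3, 0.40 to 0.79 in SBT3.12, 0.057 to 0.18 in SCPL42, -0.74 to -0.27 in SCPL49, -0.48 to -0.052 in SCPL48 and -0.11 to -0.038 in SCPL47. With array weights, SBTI1.1 was at 0.22, SBT3.12 at 0.27, SCPL48 at -0.43 and SCPL49 at -0.69. Signals at the lowest value limit what can be seen for the 20 genes at or near it.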

Other observations

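Identical values on several arrays were not limited to the lowest value. Of the 21 genes above it on every array, 7 (33.3%) held 1 value on at least 2 arrays, against 29.5% of all such probe sets. The highest shared value was 6.77, in SCPL34, on Col-0 replicate 2 and pmr5 replicate 3. SCPL33 held 2.26 on 5 arrays.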
